A study of Mus musculus with 3 samples.

Results

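Losartan-treated and untreated mutant aortas were compared cell class by cell class. A droplet library came from the pooled ascending aortas of 3 male Fbn1 mgR/mgR mice (mgR), and another from those of 4 male Fbn1 mgR/mgR mice that had 0.6 g/L losartan in their drinking water from postnatal day 16 (mgR-LOS). The WT library, from 3 male mice, served as a reference level only. All mice were on the C57BL/6J background and 45 days old, and both mutant groups carried the same hypomorphic Fbn1 allele in every cell, which makes fibrillin-1 at a reduced level and is not a null. Whether the untreated mutants drank vehicle is not given in the labels. Because the aortas were pooled, a condition was 1 library with no replicate, so no test between conditions was made, and each interval below covers counting error only and not the spread between mice. The members were the cells of 3 gates set on the unique molecular identifiers (UMIs) of each barcode, after barcodes outside 600 to 5000 genes or above 10% of mitochondrial UMIs had been left out. Per 10000 UMIs, the smooth muscle cell (SMC) gate asked for at least 150 from Acta2, Myh11, Tagln, Cnn1, Myl9 and Tpm2 together and fewer than 10 of Dcn. The fibroblast gate asked for at least 20 of Dcn and fewer than 100 of that panel, with no UMI of Ptprc or Pecam1. The macrophage gate asked for at least 10 from C1qa, C1qb and C1qc and fewer than 100 of the panel. The gates held 17309 of the 20797 barcodes that passed in the mutant libraries, and the series had 33178 barcodes in all. By library they held 75.2% of the passing barcodes of mgR and 88.3% of those of mgR-LOS.

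Fibrillin-1 is the main protein of microfibrils, which scaffold elastin in the aortic wall and hold latent TGF-beta, and too little of it causes the aneurysms of Marfan syndrome. In such aneurysms SMCs are known to shift from a contractile to a matrix-producing, modulated state. Losartan blocks the type 1 receptor of angiotensin II, a hormone that constricts vessels and drives TGF-beta signaling and matrix production in SMCs and fibroblasts. In mice that receptor is encoded by Agtr1a and Agtr1b.

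Depth moved with the comparison. The SMC gate held 3048 barcodes in mgR at a median of 15301.5 UMIs and 7832 in mgR-LOS at a median of 8551, and the macrophage gate 986 at 8320.5 and 575 at 6351. The fibroblast gate held 2049 at 12157 UMIs in mgR and 2835 at 8013 in mgR-LOS, and 8 barcodes of each mutant library were in both of these last gates. The file headers name CellRanger 5.0.1 for WT and mgR and 6.0.1 for mgR-LOS, so an effect of the version and one of losartan cannot be told apart. The mutant libraries shared 46 barcodes, of which 8 lay in the same gate of both. Each gate carried markers of its class, although the lists include the genes that set the gates. The 10 smooth muscle markers summed to 51491 CPM (UMIs of a gene relative to all UMIs of its gate) in mgR and 51109 in mgR-LOS in the SMC gate, 9 fibroblast markers to 31458 and 39695 CPM in the fibroblast gate, and 9 macrophage markers to 24889 and 22838 CPM in the macrophage gate. Among macrophage genes outside the gate rule, Lyz2 was at 9452 and 7421 CPM there and Cd68 at 365 and 407 CPM. In the SMC gate the macrophage markers summed to 126.5 CPM in mgR and 173.1 CPM in mgR-LOS, and in the fibroblast gate to 68.4 and 73.6 CPM. Red cell markers were at 87.9 against 171 CPM in the SMC gate, 11.9 against 140.7 in the fibroblast gate and 28.6 against 227.2 in the macrophage gate, and their part in the results was not tested.

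Fbn1, the mutated gene, stood at 250.5, 77.6 and 66.6 CPM in the SMC gate of WT, mgR and mgR-LOS, and at 802, 318 and 270.2 CPM in the fibroblast gate. The ratio of mgR-LOS over mgR was 0.858 (0.822 to 0.897) in the former and 0.8496 (0.822 to 0.878) in the latter, and in neither gate did the treated mutant come near the WT level. Agtr1a, the main target of losartan, was sparse, with 2.52, 1.95 and 2.92 CPM in the SMC gate and 2.53, 6.24 and 4.68 CPM in the fibroblast gate. It rested on 92 and 206 UMIs of the mutant SMCs, and its ratio there of 1.496 turned to 0.819 once barcodes were thinned to 2000 UMIs, so no direction was read from it. Agtr1b had 9 and 23 UMIs in the SMC gate. Of 18 listed genes of the renin-angiotensin system, 5 were measured in SMCs, and of these Ace, which makes angiotensin II, was lower in mgR-LOS, at 82.8, 162 and 89.5 CPM with a ratio of 0.551 (0.533 to 0.5695). In fibroblasts Ace was at 232, 227 and 199 CPM.

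The share of barcodes in each gate differed between the mutant libraries. The SMC gate held 37.7% of the passing barcodes in mgR and 61.6% in mgR-LOS, against 66.4% in WT. The difference between the mutants was 23.8 percentage points (22.5 to 25.2, Newcombe's 95% interval). Any SMCs with a low contractile panel or with more Dcn are not counted. All gates together held 75.2% of passing barcodes in mgR and 88.3% in mgR-LOS. Macrophages were 12.2% in mgR, 4.52% in mgR-LOS and 1.74% in WT (exact binomial 95% intervals 11.5% to 12.9%, 4.17% to 4.90% and 1.40% to 2.12%). Fibroblasts were 25.4% in mgR and 22.3% in mgR-LOS, a difference of -3.09 points (-4.28 to -1.90). The shares describe dissociated cells that were captured, and the mouse-to-mouse spread of a gate's share could not be measured. They were taken without thinning, at medians of 12410.5 UMIs per passing barcode in mgR and 8334 in mgR-LOS. The part of depth in the shares was not tested.

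**Figure D1:**
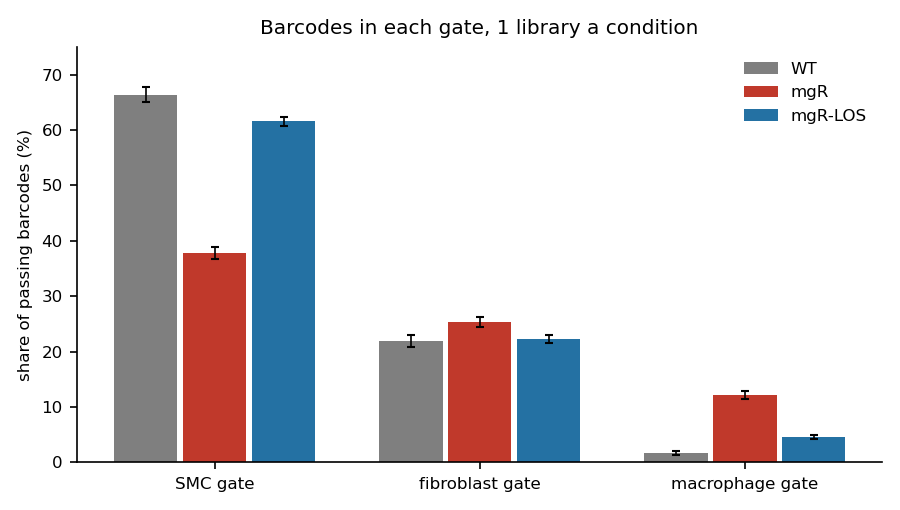
Share of passing barcodes (y axis, %) in the SMC, fibroblast and macrophage gates of the WT, mgR and mgR-LOS libraries, with exact binomial 95% intervals for counting error as error bars. The SMC share stands at 37.7% in mgR and 61.6% in mgR-LOS, and the macrophage share at 12.2% and 4.52%.

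Genes were compared where their mean over the mutant libraries was at least 20 CPM, leaving out the genes that set the gate, and a gene counted as higher or lower at a ratio of 1.5 or more in either direction. In the SMC gate 5263 genes were measured, of which 189 (3.59%) were higher and 176 (3.34%) lower in mgR-LOS. In the fibroblast gate 136 (2.31%) of 5892 genes were higher and 159 (2.7%) lower. In the macrophage gate 188 (3.42%) of 5504 genes were higher and 107 (1.94%) lower. Counts of list genes below are to be read against these shares of all genes. The median log2 ratio of all genes was 0.01 in SMCs, -0.01 in fibroblasts and 0.02 in macrophages. Malat1, a nuclear RNA, and Gm42418, which takes up ribosomal RNA reads, were higher in mgR-LOS in all 3 gates. With CPM taken without Malat1 and without mitochondrial, ribosomal protein, globin and rRNA-like genes, the SMC counts moved to 322 higher and 137 lower, so that 70.2% instead of 51.8% of the genes past the fold were higher, and the median log2 ratio moved to 0.10.

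**Figure D2:**
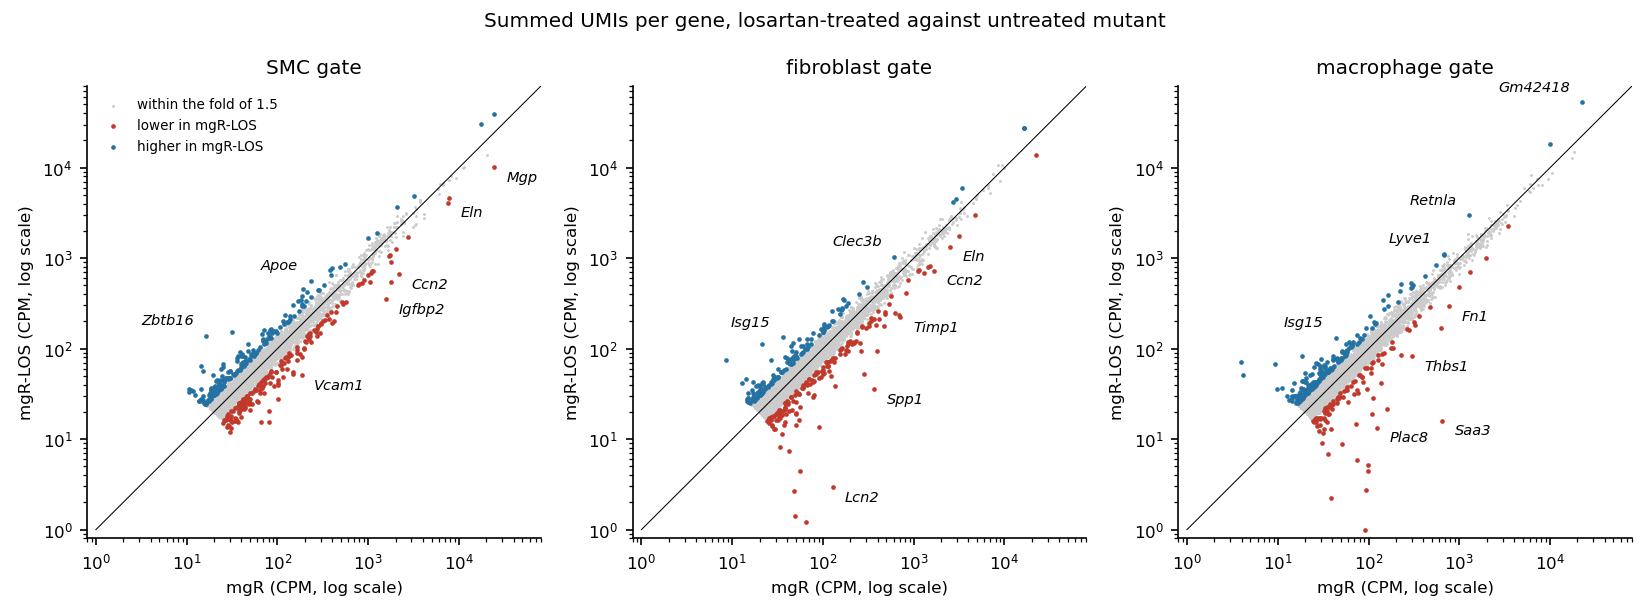
CPM per gene in mgR (x axis, log scale) and mgR-LOS (y axis, log scale) in each gate, over genes with at least 20 CPM on average and a UMI in both libraries. Colored points lie past the fold of 1.5, and the largest named departures are Igfbp2 and Vcam1 below and Zbtb16 above the diagonal in SMCs, Lcn2 and Spp1 below it in fibroblasts, and Saa3 and Plac8 below it in macrophages.

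In SMCs, most measured genes of a list for the modulated state were lower in the treated mutant. The list was chosen with earlier results of these data known, so its count is no separate support. Of 15 measured genes of the smooth muscle modulation list, 12 were lower in mgR-LOS, none was higher and the median log2 ratio was -1.14. Mgp, a matrix protein that inhibits calcification, was at 5926, 24372 and 10082 CPM in WT, mgR and mgR-LOS, a ratio of 0.414 (0.412 to 0.415). The insulin-like growth factor binding protein Igfbp2 had the smallest ratio of all named SMC genes, 0.224 (0.221 to 0.228), with 70.1, 1569 and 352 CPM in the same order. Fibronectin (Fn1), a glycoprotein to which cells attach through integrins, stood at 463, 1791 and 549 CPM. For each of these genes mgR was the highest of the libraries, and mgR-LOS lay between mgR and WT. The leukocyte adhesion receptor Vcam1 was at 12.7, 186 and 51.1 CPM, with a ratio of 0.276 (0.265 to 0.287). Thrombospondin-1 (Thbs1), which can activate latent TGF-beta, was at 12.8, 149 and 52.1 CPM, a ratio of 0.3496 (0.336 to 0.364). The protease inhibitor Timp1 came down to 15.5 CPM in mgR-LOS from 66.1 in mgR, with 15.8 in WT. The cartilage proteoglycan gene Acan had a ratio of 0.453 and the matricellular gene Tnc one of 0.396. Within the fold were Sost at 0.841, Klf4, a transcription factor of the modulated state, at 1.105, and Lum, a fibroblast proteoglycan, at 1.27.

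For Mgp the difference widened from the low to the high end of the SMCs. After each barcode was thinned to 2000 UMIs, the median barcode had 23 UMIs of Mgp in mgR and 12 in mgR-LOS, against 8 in WT. In the same order the 25th percentile was 9, 7 and 4 UMIs and the 90th percentile 120, 44 and 25 UMIs. The other genes of the modulation list together gave a median of 9 UMIs in mgR, 4 in mgR-LOS and 4 in WT. Igfbp2 was seen in 62.3% of thinned SMCs of mgR (exact binomial 95% interval 60.6% to 64.0%), in 25.1% of mgR-LOS (24.1% to 26.1%) and in 5.64% of WT. In the macrophage gate, which should lack it, 11.2% of mgR and 1.46% of mgR-LOS barcodes had an Igfbp2 UMI, also thinned to 2000 UMIs. Without the 1% of SMCs with the most UMIs of the gene, the ratios of Igfbp2, Vcam1 and Thbs1 were 0.1997, 0.218 and 0.247. This check was chosen after the data had been seen. UMIs of Thbs1 were in 823 of 3048 mgR and 778 of 7832 mgR-LOS SMCs. The check thus took out a larger part of the carriers in mgR-LOS, and nothing was concluded from these smaller ratios. With called doublets left out the ratios of Igfbp2, Vcam1 and Thbs1 were 0.225, 0.316 and 0.445. Vcam1 and Thbs1 were the more uneven, with 91 and 59 of the 3048 mgR SMCs holding 50% of the UMIs, against 320 for Igfbp2.

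Elastic fibre genes and some collagens of SMCs were also lower. On the list of elastic fibre and microfibril genes 8 of 15 measured members were lower in mgR-LOS and none higher (median log2 ratio -0.59), although 5 of 17 were lower with the narrower CPM total described above. Elastin (Eln) stood at 6074, 7561 and 4117 CPM in WT, mgR and mgR-LOS, so that its level in treated mutants was below that in WT as well. Its crosslinking enzyme lysyl oxidase (Lox) followed the same order, at 294, 415 and 203 CPM with a ratio of 0.488 (0.478 to 0.499). Fbln5, which guides elastin onto microfibrils, had a ratio of 0.638, and the latent TGF-beta binding protein gene Ltbp4, at 1.40, was the highest of the list and within the fold. Of 14 collagen chains 6 were lower and 1 was higher. The 9 fibroblast markers, which include Col1a1 and Col1a2, summed to 4249 CPM in mgR and 3202 CPM in mgR-LOS in the SMC gate, and their part was not tested. The non-fibrillar chain Col8a1 was the lowest, at 5.46, 81.4 and 20.3 CPM, and the fibrillar chain Col1a1 stood at 1196, 1727 and 1071 CPM. Col3a1, another fibrillar chain, had a ratio of 0.705, within the fold. Col14a1, a collagen that coats fibrils, was the chain on the higher side, at 142, 130.4 and 197 CPM. Of 11 proteoglycan and hyaluronan genes 1 was lower and 2 were higher (1 and 4 of 12 with the narrower total), and of 16 matrix proteases and inhibitors 4 were lower and 1 was higher. The small proteoglycans Ogn and Aspn were the higher ones, with ratios of 1.94 and 2.098, and Ogn stood at 931, 404 and 784 CPM.

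Some genes known to respond to TGF-beta were lower in SMCs, while the genes of its signaling chain mostly were not past the fold. Of 17 measured response genes in SMCs, 8 were lower, 1 was higher and the median log2 ratio was -0.34, and with the narrower total 5 were lower. The lower ones include Fn1 and Thbs1, which were also counted on the modulation list. The median of the response list was -0.09 in fibroblasts and -0.06 in macrophages. Ccn2, or connective tissue growth factor, stood at 2098, 2180 and 666 CPM, which puts mgR at about the WT level and mgR-LOS below both. In thinned barcodes Ccn2 was seen in 83.8% of mgR and 54.4% of mgR-LOS SMCs, against 86.1% in WT, and in 17.6% and 6.36% of the mutant macrophages, a class not known to make it. Postn, Pmepa1 and Nox4 had ratios of 0.633, 0.642 and 0.645, whereas the cell cycle inhibitor Cdkn1a was higher at 1.67. Among 20 ligands, receptors and Smads, Tgfb3 and Gdf10 were lower, with ratios of 0.662 and 0.6105, and none was higher. Tgfbr1 stood at 0.855, Tgfbr2 at 0.998 and the inhibitory Smad7 at 1.14. The growth factor list also holds receptors and binding proteins, among them Igfbp2 of the modulation list. In SMCs 6 of its 14 measured genes were lower, against 3.34% of all genes. With the narrower total 6 of 16 were lower and 1 was higher. Fgf2, a mitogen of SMCs, was at 72.7, 186 and 81.2 CPM, a ratio of 0.438 (0.424 to 0.453), and Pdgfa had a ratio of 0.636.

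Contractile genes of gated SMCs were close to their level in the untreated mutant. The gate asks for a high contractile panel, so SMCs that had lost it are not covered. Genes that vary with the panel may be held near equal by this choice, and a change over all SMCs was not tested. Of 26 genes of the contractile apparatus outside the gate panel, 2 were higher and 1 lower, with a median log2 ratio of 0.03. Desmin (Des), the intermediate filament of muscle, was at 172, 69.2 and 124 CPM and the actin-bundling protein gene Synpo2 at 577, 281 and 442 CPM, both higher in mgR-LOS than in mgR and below WT. Mylk4, a kinase of the myosin light chain kinase family, was the lower one at a ratio of 0.573. The myosin light chain kinase of SMCs itself, Mylk, was at 1.01, the coactivator Myocd at 1.097 and smoothelin (Smtn) at 0.993. In the nitric oxide and cGMP list, 4 of 11 genes were higher. Gucy1a1, a subunit of the nitric oxide receptor guanylate cyclase, was at 259, 210.5 and 423 CPM with a ratio of 2.01 (1.96 to 2.06), and its partner subunit Gucy1b1 was within the fold at 1.39. Pde5a, which degrades cGMP, had a ratio of 1.57, and Pde1a one of 1.96. The remaining gene was Hba-a1, a globin gene that is itself on the red cell marker list. Of 12 genes of potassium and calcium handling 2 were higher, the calcium channel subunit Cacna1d at a ratio of 1.93 and the K-ATP channel subunit Abcc9 at 81.5, 41.4 and 71.9 CPM, while the pericyte and mural markers as a whole, which include Abcc9, summed to 427 CPM in mgR and 420.4 in mgR-LOS.

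Of the genes higher in treated SMCs, Zbtb16, a zinc finger transcription factor, had the largest ratio of the genes reaching 100 CPM in a mutant library, 8.43 (7.83 to 9.08), at 32.03, 16.4 and 139 CPM in WT, mgR and mgR-LOS, above WT as well. In thinned SMCs it was seen in 3.33% of mgR and 23.1% of mgR-LOS barcodes, and in macrophages in 1.66% and 7.09%. Fkbp5, like Zbtb16 a gene induced by glucocorticoids, was at 15.7, 14.5 and 27.5 CPM and was also higher, but Sgk1 was lower at a ratio of 0.605, and of the 10 measured genes of that list 2 were higher and 1 lower. Apoe, an apolipoprotein, was at 512, 232 and 565 CPM, so that mgR was the low library. The heat shock genes Hspa1a and Hspa1b, near-identical copies whose reads cannot be told apart with certainty, were at 459, 191 and 459.6 CPM and 295, 122 and 238 CPM. Hes1, a target of Notch, was at 54.8, 169 and 338 CPM, and the other 7 measured Notch pathway genes were within the fold. The detoxifying enzyme Gstm1 was at 466, 186 and 379 CPM. Plekho1, Gpc6, Arl6ip5 and Nsa2 had ratios between 2.05 and 2.39, and the RNA Gm26802 one of 4.79. The 4 measured MHC class II genes were higher, from 1.55 for H2-Aa to 1.84 for Cd74, at low levels (Cd74 at 5.25, 43.8 and 80.7 CPM), and the summed macrophage markers of the SMC gate were 1.37 times as high in mgR-LOS, a part that was not tested.

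**Figure D3:**
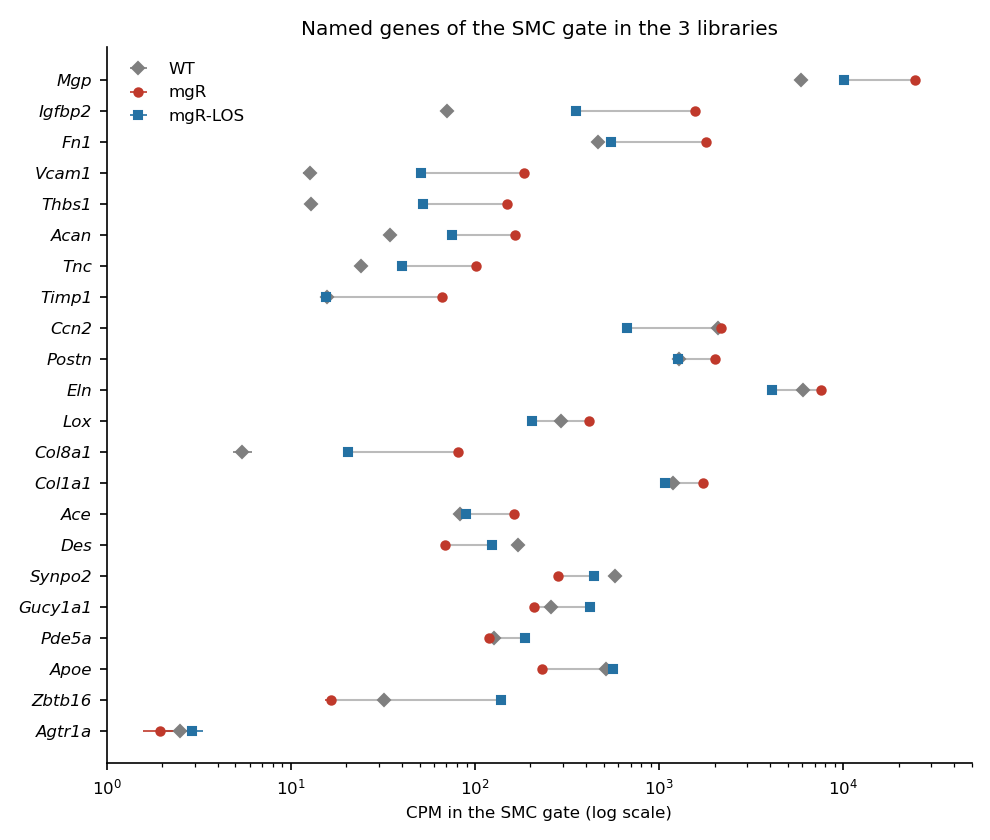
Level of named genes in the SMC gate (x axis, CPM on a log scale) in the WT, mgR and mgR-LOS libraries, with exact Poisson 95% intervals for counting error, mostly narrower than the symbols. For Mgp, Igfbp2, Fn1, Vcam1 and Thbs1 the mgR-LOS point lies between WT and mgR, and for Ccn2, Eln and Lox below both.

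In fibroblasts genes of matrix remodeling were among those lower in mgR-LOS. The smooth muscle modulation list had 11 of its 20 measured genes lower and none higher, with a median log2 ratio of -0.66. Timp1 was at 222, 714 and 222 CPM in WT, mgR and mgR-LOS, a ratio of 0.3101 (0.301 to 0.3199). In mgR 45 of 2049 fibroblasts held 50% of its UMIs. The ratio moved to 0.444 without the 1% of barcodes with the most UMIs of it. After thinning 45.9% of mgR and 29.4% of mgR-LOS fibroblasts had a UMI of Timp1, against 31.3% of WT and 2.804% and 1.64% of the mutant macrophages. Cthrc1, a secreted protein of activated fibroblasts, was at 58.96, 283 and 52.5 CPM. Lox was at 249, 628 and 250.1 CPM and Eln at 2778, 2532 and 1339 CPM. For Timp1, Cthrc1 and Lox the treated mutant was at about the WT level, and for Eln it was below it. Ccn5, a relative of Ccn2, was at 366, 396 and 95.05 CPM and Ccn2 itself at 1256, 1684 and 725 CPM, both lower than in WT. Serpina3n, an acute phase protease inhibitor, was at 108, 471 and 176 CPM, and the cofactor Fhl2 had a ratio of 0.286. Col8a1, at 195, 261 and 93.6 CPM, Col11a1, Col12a1 and Col4a1 were the 4 of 18 collagen chains that were lower. The major fibrillar chains were not: Col1a1 had a ratio of 1.13, Col3a1 of 1.003 and Col1a2 of 1.26.

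Of 11 measured chemokines and receptors in fibroblasts, 6 were lower in mgR-LOS and none was higher. Other inflammatory lists were mostly within the fold, with none of 12 genes of the IL-1, IL-6 and TNF list past it and 1 of 10 complement genes lower. Ccl2, which draws monocytes, was at 60.6, 379.5 and 184 CPM, with a ratio of 0.486 (0.469 to 0.504), and Ccl7, its neighbor in sequence and function, at 57.4, 218 and 118 CPM. The neutrophil attractant Cxcl1 was at 266, 1128 and 729 CPM. Cxcl13, which attracts B cells, was at 0.0767, 48.9 and 1.43 CPM, and 2 of the 2049 mgR fibroblasts held 50% of its UMIs. Osteopontin (Spp1) was at 362, 367 and 35.5 CPM, with 50% of its mgR UMIs in 3 barcodes, and lipocalin-2 (Lcn2) at 2.91, 128 and 2.95 CPM, with 50% in 10. Without the 1% of barcodes with the most UMIs, the ratio of Spp1 was 0.05799 and that of Lcn2 0.0142. With them the ratios were 0.0968 and 0.0231. UMIs of Spp1 were in 174 mgR and 66 mgR-LOS barcodes, and those of Lcn2 in 170 and 40. The check thus took out a larger part of the carriers in mgR-LOS, and nothing was concluded from these smaller ratios. Prg4, or lubricin, had a ratio of 0.3398 that moved to 0.504 in that check, with 15 mgR barcodes holding 50% of its UMIs. In this gate 5 mesothelial markers summed to 63.5 CPM in mgR and 38.9 CPM in mgR-LOS and 6 neutrophil markers to 6.28 and 0.693 CPM, and their part was not tested. The metallothioneins Mt1 and Mt2 were lower as well, with Mt1 at 2706, 3146 and 1764 CPM.

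Genes higher in treated fibroblasts included Zbtb16, at 13.1, 21.3 and 112 CPM in WT, mgR and mgR-LOS, a ratio of 5.25 (4.78 to 5.77). Markers of fibroblast subtypes did not move as a group, with 3 of 24 higher and 3 lower. Clec3b, a plasminogen-binding protein of adventitial fibroblasts, was at 786, 611 and 1040 CPM, the Wnt inhibitor Wif1 at 629.7, 187 and 316 CPM and Col15a1, a basement membrane collagen, at 369.5, 155 and 242 CPM. These 3 were lowest in mgR. On the lower side stood Hsd11b1, which reactivates glucocorticoids, at 64.7, 254 and 116 CPM. Pi16, a marker of stem-like adventitial fibroblasts, was within the fold at 1.07. The decorin gene Dcn set this gate and was left out of the counts. Cpz, a carboxypeptidase that binds Wnt proteins, had a ratio of 2.48 (2.31 to 2.65), the methyltransferase Inmt one of 2.33, the scaffold protein gene Akap12 one of 2.09 and transferrin (Trf) one of 2.09. Tgfbi and Igfbp3, both induced by TGF-beta, were higher at 212, 147 and 275 CPM and 96.7, 78.3 and 147 CPM, while 6 other genes of the 20 measured on the TGF-beta response list were lower.

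Isg15, an interferon-induced ubiquitin-like protein, was higher in mgR-LOS, while most of the interferon-stimulated list was within the fold. It was at 38.3, 36.1 and 134 CPM in fibroblasts, a ratio of 3.71 (3.44 to 3.998), and at 54.8, 43.8 and 132 CPM in macrophages, a ratio of 3.01 (2.63 to 3.44). Of 19 measured list genes in fibroblasts 3 were higher (with Cxcl10 and Ifit2) and 1, Bst2, was lower, and of 24 in macrophages 4 were higher and 2 lower. Bases upstream of 4 of these genes are shown because they carry the interferon-stimulated response element, the site at which interferon-activated factors bind, and yet differ in ratio. The element, TTTCNNTTTC on either strand with overlapping matches included, is in capitals. The sequences are from RefSeq on GRCm38.p6 and lie at chr4:156200845-156200926 (minus strand) for Isg15, chr19:34640755-34640843 (plus strand) for Ifit1, chr19:34583343-34583446 (plus strand) for Ifit3 and chr8:71537557-71537632 (minus strand) for Bst2.
Isg15: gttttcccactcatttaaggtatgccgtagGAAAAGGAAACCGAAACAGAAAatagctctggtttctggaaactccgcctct
Ifit1: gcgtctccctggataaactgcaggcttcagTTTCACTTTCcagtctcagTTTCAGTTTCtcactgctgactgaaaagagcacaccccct
Ifit3: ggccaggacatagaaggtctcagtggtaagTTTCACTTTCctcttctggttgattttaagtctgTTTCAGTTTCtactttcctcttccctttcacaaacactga
Bst2: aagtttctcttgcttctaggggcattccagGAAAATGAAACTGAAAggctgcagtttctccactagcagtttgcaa

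Isg15 held 3 matches, of which neighbors overlap, Bst2 held 2 that overlap, and Ifit1 and Ifit3 held 2 each that do not, within the 250 bases before the start site. The element was found in that window in 11 of the 20 list genes with a RefSeq promoter and in 2.98% of all 32851 promoters. In fibroblasts Ifit1 was at 60.1, 72.6 and 66.7 CPM and Ifit3 at 67.2, 72.2 and 70.4 CPM, with ratios of 0.919 and 0.975. Bst2, which tethers budding viruses, was at 198, 269 and 173 CPM, a ratio of 0.645. A match is a description of the letters and not evidence of binding.

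In macrophages the treated mutant had lower levels of some monocyte genes and higher levels of some genes of resident macrophages. Of 20 measured genes of the resident list 6 were higher and none lower, with a median log2 ratio of 0.40. Lyve1, a hyaluronan receptor of perivascular macrophages, was at 772, 683 and 1117 CPM in WT, mgR and mgR-LOS. Cd163, the hemoglobin scavenger receptor, was at 468, 294 and 463 CPM, and the chemokine Ccl24 at 319.8, 163 and 294 CPM. For these genes the untreated mutant was the lowest of the libraries, although the WT gate held 93 barcodes only. Mrc1, Folr2 and F13a1 were within the fold, with ratios of 1.11, 1.43 and 1.48. Thinned to 2000 UMIs, the median macrophage had 4 UMIs of Folr2, F13a1, Mrc1, Lyve1 and Cd163 together in mgR and 7 in mgR-LOS. Of 13 monocyte genes 4 were lower and none higher. Ly6c2, the surface marker of inflammatory monocytes, was at 0, 75.2 and 5.92 CPM, with 657 UMIs in mgR and 24 in mgR-LOS. It was seen in 53 of the 986 mgR barcodes, and 6 of them held 50% of its UMIs. Plac8 was at 3.43, 123 and 13.3 CPM and the chemokine receptor Ccr2 was within the fold, at a ratio of 0.681. Among barcodes that carried resident genes (at least 5 UMIs per 10000 of those 5 genes) the Plac8 ratio was 0.482.

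Lipid-handling genes of macrophages were mixed. Fabp4 and Fabp5, fatty acid binding proteins, were at 68.5, 109.9 and 19.0 CPM and 46.8, 114 and 28.4 CPM, both lowest in mgR-LOS. Among barcodes with resident genes their ratios were 0.631 and 0.415, nearer to 1 than in the whole gate. Trem2, a lipid receptor of macrophages in lesions, was at 146, 268 and 164 CPM and Spp1 at 35.4, 229 and 85.1 CPM. Apoe, which carries lipids out of the cell, was within the fold at 0.728, and Slc40a1, the iron exporter, was the 1 of 24 that was higher. Thbs1 was at 76.5, 303 and 82.9 CPM and Fn1 at 267, 773 and 295 CPM. The WT level of Fn1 rested mostly on 1 barcode, which held 172 of its 234 UMIs. The Thbs1 ratio of 0.274 moved to 0.490 among barcodes with resident genes. Without the 1% of barcodes with the most UMIs of the gene it was 0.157, and that of Spp1 moved from 0.372 to 0.188. UMIs of Spp1 were in 240 mgR and 49 mgR-LOS barcodes, so this check took out a larger part of its carriers in mgR-LOS. Nothing was concluded from the smaller ratios of either gene. Retnla, a product of alternatively activated macrophages, was at 1583, 1289 and 2985 CPM with a ratio of 2.32 (2.26 to 2.38), 18 barcodes of mgR and 15 of mgR-LOS holding 50% of its UMIs. Slc15a3, a lysosomal peptide transporter, was at 159.9, 143 and 347 CPM, and Hpgd, which degrades prostaglandins, at 387, 148 and 272 CPM. Of 23 chemokines and receptors in macrophages 5 were lower and 2 higher, and of 18 genes of the IL-1, IL-6 and TNF list 1 was lower and 1 higher. The cytokine genes Il1b and Tnf were within the fold at 0.962 and 0.924.

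Several of the most extreme macrophage ratios rested on few barcodes or were those of marker genes of other cells. In mgR 3 barcodes of the gate with at least 100 immunoglobulin UMIs each held 26972 of the 28785 UMIs of Igkc, Igha, Ighm and Jchain, and mgR-LOS had no such barcode. Jchain, which joins secreted antibodies, had 3023 UMIs in mgR and 0 in mgR-LOS, at least 467-fold lower against a floor of 3 counts. Igha had 2479 and 0 UMIs, at least 383-fold lower by the same floor of each library, and 2474 of its UMIs were in 1 barcode. Ighm had a ratio of 0.269, which became 1.05 without the 1% of barcodes with the most UMIs and 1.10 among barcodes with resident genes. Saa3, an acute phase protein, had 5667 UMIs in mgR and 65 in mgR-LOS, with 50% of the former in 8 barcodes. Its ratio of 0.0247 was 0.131 among barcodes with resident genes. Without the 1% of barcodes with the most UMIs of it the ratio was 0, which was fixed in advance. Its UMIs lay in 79 mgR barcodes but only 6 of mgR-LOS, and all 6 were among those left out. In this gate 5 mesothelial markers went from 21.4 CPM in mgR to 0.740 CPM in mgR-LOS and 6 neutrophil markers from 55.5 to 17.3 CPM, and their part was not tested. On the higher side were Dcn at a ratio of 2.29, Lum at 2.04 and gelsolin (Gsn) at 2.398. Dcn and Lum are themselves on the list of 9 fibroblast markers, which summed to 932 CPM in mgR and 1692 CPM in mgR-LOS in this gate. Of the 8 markers measured here 7 were higher, against 3.42% of all genes. In macrophages without a Pecam1 UMI and with fewer than 10 UMIs of Dcn per 10000, the ratio of Gsn was 1.39 and that of Mmp2 was 1.15, against 1.96 in the whole gate. Of the globin genes Hba-a1 had a ratio of 18.3, with 236 of its 288 UMIs of mgR-LOS in 1 barcode.

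Of the 3866 genes measured in all 3 gates, 14 (0.362%) were lower and 18 (0.466%) higher in each of them. The gates came from the same libraries and share their depth and free RNA, so the overlap does not count as 3 separate observations. The matrix and TGF-beta response genes Ccn2, Fn1, Thbs1, Lox and Eln were on the lower side, as was the growth factor binding protein gene Igfbp2. Igfbp2 had ratios of 0.224 in SMCs, 0.285 in fibroblasts and 0.173 in macrophages, at mgR levels of 1569, 50.3 and 51.2 CPM. Eln and Lox are no macrophage products, and in the macrophage gate the smooth muscle markers summed to 1276 CPM in mgR and 1338 CPM in mgR-LOS. Bloc1s1, Gm10076 and Hist2h2aa1 were on the lower side too, and the latter pair share sequence with near-identical copies and are uncertain. On the higher side stood Zbtb16, with ratios of 8.43, 5.25 and 3.61, the hexokinase Hk2, the antioxidant regulator Nfe2l2, the thyroid hormone receptor Thra, the translation inhibitor Pdcd4 and the trafficking protein gene Arl6ip5, besides Malat1, Gm42418 and Hspa1a. Hist1h4d, 1 of many near-identical histone genes, is uncertain. The rest (Brd9, Cntln, Eif3j1, Nmt1, Nop14, Rbm22, Rnf10 and Upf2) had ratios between 1.51 and 2.15.

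**Figure D4:**
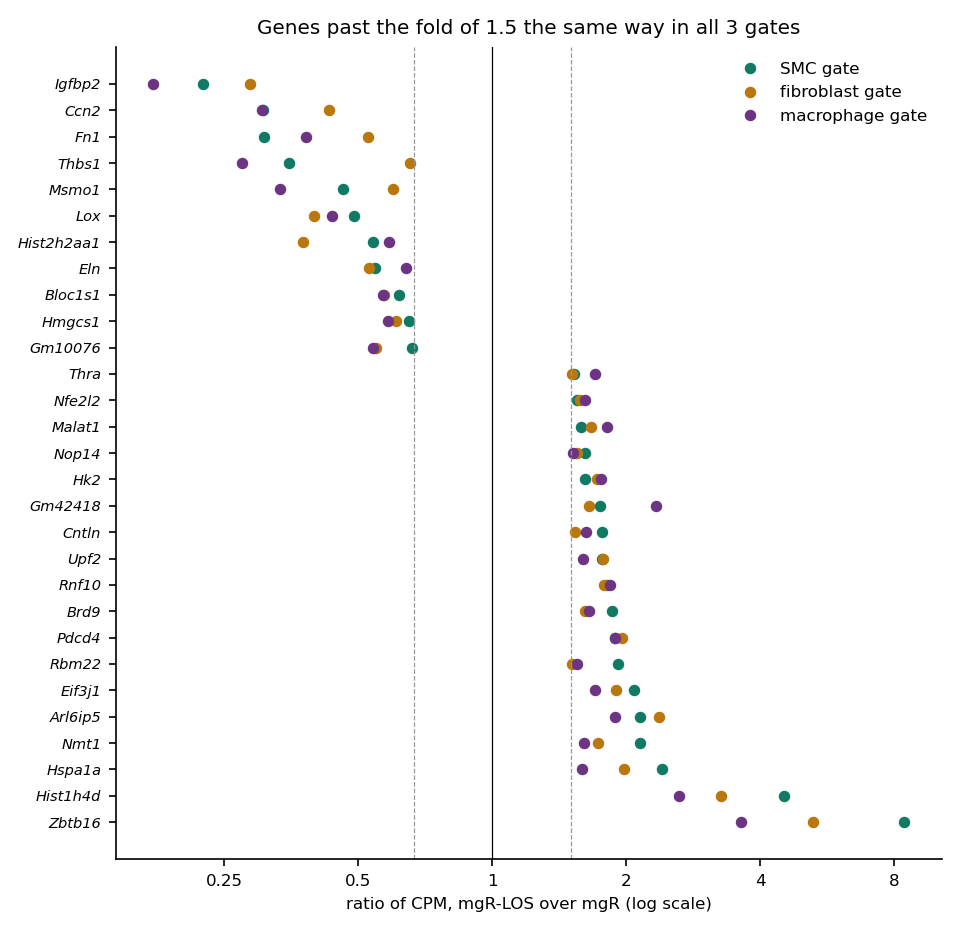
Ratio of CPM in mgR-LOS over mgR (x axis, log scale) for 29 genes that lay past the fold of 1.5 (dashed lines) in the same direction in the SMC, fibroblast and macrophage gates. Igfbp2 has ratios from 0.173 to 0.285 at the lower end and Zbtb16 from 3.61 to 8.43 at the upper end.

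Among the genes lower in every gate were Hmgcs1 and Msmo1, of cholesterol synthesis. Cells short of cholesterol switch these genes on together through sterol regulatory element binding proteins. Of the list, 7 of 11 measured genes were lower in SMCs, 4 of 10 in fibroblasts and 5 of 8 in macrophages, and none was higher in any gate, with median log2 ratios of -0.62, -0.41 and -0.73. Levels were low. Msmo1, a sterol oxidase, was at 35.6, 52.7 and 24.4 CPM in SMCs, a ratio of 0.463 (0.435 to 0.492), and at 23.99, 38.6 and 12.8 CPM in macrophages. Hmgcs1, which makes the precursor of mevalonate, was at 48.03, 69.2 and 44.9 CPM in SMCs and 52.4, 53.7 and 32.6 CPM in fibroblasts. The regulator Srebf2 itself was within the fold in all 3 gates, at ratios of 0.919, 0.885 and 0.843. The stretch before Hmgcs1 (chr13:119690184-119690252 (plus strand), GRCm38.p6, RefSeq) is shown for its sterol regulatory element, searched as TCACNCCAC on both strands and in capitals.
Hmgcs1: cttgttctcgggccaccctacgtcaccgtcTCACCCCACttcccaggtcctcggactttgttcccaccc

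This motif, chosen after the values had been seen, was in the 250 bases before the start site of 1 of the 11 listed cholesterol genes with a RefSeq promoter and of 1.05% of all promoters.

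Barcodes that carried genes of all 3 classes at the same time were fewer in the treated library. After thinning to 1000 UMIs, 220 of 8069 mgR barcodes (2.73%) and 80 of 12713 mgR-LOS barcodes (0.629%) had at least 3 UMIs each from 3 panels, of SMC (the gate panel), fibroblast (Dpt, Col1a1, Col1a2, Col3a1, Serpinf1, Clec3b) and immune genes (Lyz2, Cxcl2, Il1b, C1qa, C1qb, Ccl4, Cd74), a difference of -2.10 percentage points (-2.50 to -1.73), against 3 of 5354 in WT. With called doublets left out, 184 of 7547 mgR barcodes (2.44%) and 30 of 11418 mgR-LOS barcodes (0.263%) remained, a difference of -2.18 points. A larger part of these barcodes was thus called as doublets in mgR-LOS. The number of calls was set in advance by library size, at 6.46% of passing mgR and 10.2% of passing mgR-LOS barcodes. The removal was therefore uneven between the libraries, and nothing was concluded from the share left after it. Macrophages, a source of the immune panel, were 12.2% of passing barcodes in mgR and 4.52% in mgR-LOS, and their part was not tested. The 77 measured nuclear genes of the respiratory chain stayed near the background in SMCs, with none past the fold and a median log2 ratio of -0.01. Of the 80 ribosomal protein genes 3 were higher, near the 3.59% of all genes. Their median log2 ratio was 0.18, against 0.01 over all genes.

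**Figure D5:**
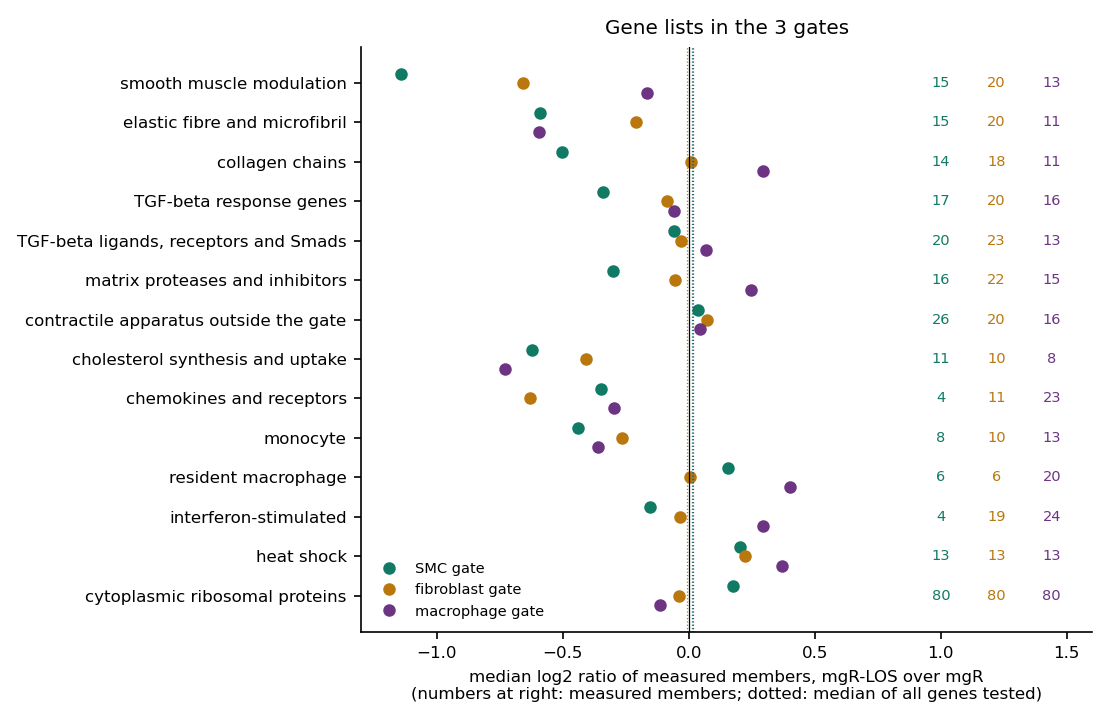
Median log2 ratio of mgR-LOS over mgR (x axis) of the measured members of 14 gene lists in the SMC, fibroblast and macrophage gates, with the number of measured members at the right and the median of all genes of a gate as dotted lines. The smooth muscle modulation list has the lowest median, -1.14 in SMCs, and the resident macrophage list stands at 0.40 in macrophages.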

How the data were processed

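Single-cell RNA was captured with 10x chemistry from digested ascending aortas, 1 pooled library each for WT, mgR and mgR-LOS. The deposited values were whole UMI counts per gene and barcode for 32285 genes, which the authors made with CellRanger on GRCm38, without further normalization. The headers name version 5.0.1 for WT and mgR and 6.0.1 for mgR-LOS, while the submitters' processing notes give 6.0.1 throughout. The study kept barcodes by limits on genes and mitochondrial UMIs, and the present limits and gates are stated with the results. Counts were summed over the barcodes of a gate and divided by their total (CPM). The mgR-LOS library had 121436873 UMIs in 14663 barcodes, mgR 123956320 in 10657 and WT 83338726 in 7858.

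The ratio of CPM in mgR-LOS over mgR was taken for genes with a mean of at least 20 CPM. With 1 library a side no p-value was computed, and a gene was called at a ratio of at least 1.5 or at most 0.6667. Intervals at 95% were exact Poisson for CPM, exact conditional binomial for ratios, exact binomial for shares and Newcombe's for differences of shares, and cover counting error only. Where stated, barcodes were thinned at random to 2000 UMIs (1000 for the share with all 3 panels), and shallower ones left out. The gates and the shares of barcodes in them were taken at full depth. Doublets were scored by artificial neighbors (25% artificial doublets, 10 principal components, 1% of barcodes as neighbors) and called at 0.8% per 1000 barcodes. They were marked and kept in: 8.50% of mgR and 11.0% of mgR-LOS SMCs, 3.76% and 1.59% of fibroblasts, and 1.93% and 2.09% of macrophages.

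The genes named were the 12 largest and 12 smallest ratios per gate among genes with at least 100 CPM in either mutant library, Fbn1, Agtr1a, Thbs1, Lum, Dcn and Mmp2, members of the gene lists and genes past the fold in all 3 gates. The gates, gene lists and named genes were chosen with earlier results of these data known. Some genes are not reported here. The calculation was tested on simulated counts. Python was used with numpy 2.4.6, pandas 2.3.3, scipy 1.17.1, scikit-learn 1.9.0, statsmodels 0.14.6 and matplotlib 3.10.9.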

Additional observations from a re-analysis of the deposited data

Results flagged for a closer look

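Col15a1, a basement membrane collagen, went in opposite directions in 2 cell classes of the same libraries, with a ratio of mgR-LOS over mgR of 0.642 in SMCs and 1.56 in fibroblasts. Its level was 397, 514 and 330.1 CPM in SMCs of WT, mgR and mgR-LOS and 369.5, 155 and 242 CPM in fibroblasts. With 1 library a side the difference between the classes was not tested.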

How the results depend on the processing

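No paired analysis was possible because each group had 1 library, and for the same reason no replicate could be left out. Of 100 alternatives for shares and counts of genes, 64 stayed close to the reported value and 36 moved. A count was close within 1.5-fold of the reported count, and a share difference or a ratio within its interval for counting error. Other CPM floors and folds change a count of genes by their nature, so nothing was concluded from the tally. The SMC share difference was 28.4 points with tighter limits on genes per barcode. That of fibroblasts was -0.957 points at a mitochondrial limit of 5%, -1.02 with stricter gates and -1.69 without called doublets. That of macrophages was -9.63 at the 5% limit and -10.6 with the tighter limits on genes. The share with all 3 panels differed by -2.93 points at 2 UMIs of each panel and by -1.29 at 5. The genes higher and lower numbered, in SMCs, fibroblasts and macrophages in turn, 422 and 315, 327 and 341, and 545 and 352 with at least 5 CPM. They numbered 51 and 69, 34 and 57, and 28 and 26 with at least 100 CPM. At a fold of 2 they numbered 32 and 40, 19 and 40, and 37 and 40, and at a fold below 1.5 they numbered 702 and 589, 594 and 630, and 794 and 619. Thinning gave 337 higher and 284 lower in macrophages, and CPM without mitochondrial, ribosomal protein, globin and rRNA-like genes gave 322 higher in SMCs and 328 in macrophages. Of 874 alternatives for named genes, 601 stayed close, 271 moved and 2 reversed, both for Ighm in macrophages (1.05 without the 1% of barcodes with the most UMIs of the gene, an alternative added after the data had been seen, and 1.10 among barcodes with resident genes). The cause was not tested.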

Other observations

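Of 25 measured immediate early and stress genes in SMCs 7 were lower in mgR-LOS and none higher, against 3.34% and 3.59% of all genes. With the narrower CPM total 5 were lower and 1 was higher. Ier3, an early response gene, was at 120.1, 232 and 119 CPM in WT, mgR and mgR-LOS and Gadd45b, a stress response gene, at 124, 301 and 194 CPM, while Fos and Egr1 were within the fold at ratios of 1.204 and 1.05. Of 11 circadian genes 3 were lower: the repressors Bhlhe40, at 55.6, 148 and 54.6 CPM, and Bhlhe41, and the clock output gene Dbp, at 141, 224 and 146 CPM. With the narrower CPM total 2 of 13 circadian genes were lower and 2 higher. The hour at which each pool of aortas was taken is not among the sample labels used here, and its part was not tested.

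Ptgs2, the inducible cyclooxygenase, was at 53.2, 101 and 27.8 CPM in SMCs, with a ratio of 0.274 (0.260 to 0.289). In fibroblasts 2 of 15 genes of the unfolded protein response were lower, Manf at 428, 487 and 257 CPM and Sdf2l1 at 59.2, 69.3 and 32.1 CPM. In macrophages 4 of 15 genes of the matrix protease and inhibitor list were higher and 2 lower, against 3.42% and 1.94% of all genes. Among the higher ones were the elastase Mmp12 at 85.7, 53.9 and 88.6 CPM and the collagenase Mmp13 at 233, 32.03 and 62.4 CPM. Mmp2 was another, at a ratio of 1.96 that fell to 1.15 with barcodes carrying markers of another type left out.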
